A study of Bos taurus with 27 samples.

Results

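NRF2, encoded by NFE2L2, and 9 genes of its regulatory circuit and inducible response were followed in the rumen epithelium (RE) of fattening cattle. The members were chosen by gene symbol (NFE2L2, MAFG, KEAP1, SQSTM1, NQO1, NQO2, AKR7A2, GCLC, GCLM and HMOX1), and every one was found on the array with 1 probe, giving 10 of 15008 probes and 10 of 14952 gene names. RNA came from biopsies of the ventral rumen sac of 9 Japanese Black cattle, each sampled at the early stage (14 months of age), the middle stage (21 months) and the late stage (29 months) of fattening, and each of the 27 RNA samples was hybridised to its own one-color Agilent array. All animals were castrated and fistulated males that received a high-concentrate diet with rice straw at every stage, so no stage was a control without concentrate. By the study's methods, the share of concentrate was higher at the middle and late stages than at the early stage. The crude protein of the concentrate fell from stage to stage. Stage could therefore not be told apart from age or from these changes of diet. The change from early to middle is called the first period, that from middle to late the second period and that from early to late the total period, and each pair of these comparisons shares 9 arrays.

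NRF2 is a basic leucine zipper transcription factor that pairs with small MAF proteins such as MAFG at antioxidant response elements. KEAP1, an adaptor of a CUL3 ubiquitin ligase, holds NRF2 in the cytoplasm and marks it for destruction until oxidants or electrophiles modify its cysteines, and SQSTM1, the autophagy receptor also named p62, can bind KEAP1 and displace NRF2. The induced genes code for enzymes that detoxify quinones, aldehydes and heme or make glutathione, and control of NRF2 acts mostly on its protein, which these arrays did not measure.

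The transcript that each value stands for was set by 1 probe of 60 bases. The probes of NFE2L2, of its repressor KEAP1, of SQSTM1 and AKR7A2, whose changes were the largest among the members, and of GCLC, which gave little signal, are shown because these results turn on them. Each is printed 5′ to 3′ in lower case, with no part singled out.
NFE2L2: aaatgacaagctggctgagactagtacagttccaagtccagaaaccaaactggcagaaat
KEAP1: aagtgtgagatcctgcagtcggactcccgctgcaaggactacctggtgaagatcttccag
SQSTM1: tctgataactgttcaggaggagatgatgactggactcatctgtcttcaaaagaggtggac
AKR7A2: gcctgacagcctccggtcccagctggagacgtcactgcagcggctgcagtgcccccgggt
GCLC: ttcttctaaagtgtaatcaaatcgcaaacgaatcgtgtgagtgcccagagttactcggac

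In the bovine build bosTau6 (UMD 3.1), which the scanner files use, the NFE2L2 probe lies at chr2:19690338-19690397 on the plus strand and the KEAP1 probe at chr7:16239264-16239323 on the minus strand. The SQSTM1 probe lies at chr7:1336541-1336600 on the minus strand, the AKR7A2 probe at chr2:133953124-133953183 on the plus strand and the GCLC probe at chr23:6965051-6965110 on the plus strand. GC content was 43.3% for the NFE2L2 and GCLC probes, 45.0% for SQSTM1, 55.0% for KEAP1 and 71.7% for AKR7A2. The other members were measured on chromosome 18 (NQO1), 23 (NQO2), 5 (HMOX1), 3 (GCLM) and 19 (MAFG), and exon and UTR annotation was not used here.

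Levels are log2 of the processed signal minus the array median, so that 0 is the level of the middle probe of that array. The median processed signal was 35.2 to 48.6 on the early arrays, 8.22 to 28.7 on the middle arrays and 32.2 to 47.0 on the late arrays, and the share of spots well above background was 68.9% to 78.2%, 48.8% to 71.6% and 68.5% to 73.8%. Every middle array was therefore dimmer than every early and late array. Slide 1 held the early arrays of animals 1 to 8, slide 2 the early array of animal 9 and the middle arrays of animals 1 to 7, slide 3 the middle arrays of animals 8 and 9, slide 4 the late arrays of animals 1 to 8, and slide 5 the late array of animal 9, so that late stage and slide cannot be told apart. Over all 15008 probes the median log2 fold change was 0.33 (first period), -0.28 (second) and 0.03 (total), and changes are therefore also given relative to these medians. The labels name the tissue as rumen epithelium, although their extraction note names neutrophils and liver. Of 14 markers of stratified epithelium, 11 had a signal well above background on each of the 27 arrays. The summed scaled level of the 14 was 3743 to 4988 on the early arrays, 1089 to 4926 on the middle arrays and 4364 to 5398 on the late arrays, with 8 lower and 1 higher in the first period and 5 higher and 2 lower in the second. No liver marker of 9 passed that mark on every array and ALB and FGA passed it on none, although APOA1 did on 9, 8 and 9 arrays of the early, middle and late stages and TTR on 9, 5 and 9. The sum of the 9 was 1.27 to 6.61, 2.11 to 12.2 and 1.48 to 7.68, with 6 of 9 higher in the first period and 7 lower in the second. Of 7 neutrophil markers, 5 rose in the first and 5 fell in the second period, with sums of 3671 to 5622, 5347 to 10697 and 4093 to 5716 that came mostly from S100A8 and S100A12, which stratified epithelia also express; CSF3R was well above background on 9, 4 and 9 arrays, CXCR2 on 9, 1 and 9, and ELANE on none. The red blood cell sum, of 5 markers, was 39.1 to 68.0, 104 to 197 and 45.3 to 90.7, with 3 higher and then 2 lower. Of 6 smooth muscle markers 3 rose and then 5 fell (62.6 to 230, 49.0 to 543 and 70.9 to 118), and of 6 fibroblast markers 1 rose and 1 fell, then 1 rose and 4 fell (86.2 to 737, 87.8 to 998 and 69.3 to 396). Endothelial and leukocyte markers moved both ways in the first period and macrophage markers did not pass the test there. Among all probes, 45.3% were called higher and 21.2% lower in the first period, and 26.7% and 44.8% in the second. Some markers in these counts lay near background. KRT4, the epithelial marker that was higher in the first period, was well above background on 0 arrays. TF and APOB were on 2, 1 and 0 arrays of the early, middle and late stages, S100A9 on 1, 0 and 1, and MPO on 1, 1 and 0. The part of these shifts in the results on NRF2 genes was not tested.

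In the first period, 5 of the 10 members were downregulated (NFE2L2, KEAP1, NQO1, AKR7A2 and SQSTM1) and NQO2 was upregulated, by limma with the animal as a block at an adjusted *P* below 0.05. Of all probes, 66.5% were called in that period, 45.3% higher and 21.2% lower, so that 6 of 10 is close to the share of the whole array. In the second period, 6 members were upregulated (NFE2L2, KEAP1, NQO1, GCLM, AKR7A2 and SQSTM1) and NQO2 and GCLC were downregulated, beside 71.5% of all probes called, 26.7% higher and 44.8% lower. In the total period, NFE2L2, GCLM and AKR7A2 were upregulated and GCLC was downregulated, beside 20.0% of all probes called, 10.9% higher and 9.02% lower. Among the 6797 probes that every one of the 27 arrays measured well above background, which include 8 of the members, the called shares were 61.8%, 68.0% and 25.5% in the first, second and total periods. A called change of at least 2-fold was reached by 4 members (KEAP1, NQO1, AKR7A2 and SQSTM1) in each of these periods, against 31.4% and 39.1% of all probes, and by none in the total period, against 4.16%. For the 10 members the median change was -0.22, 0.65 and 0.18 on the log2 scale in the same order, and in the first and second periods its sign was opposite to that of the median of all probes. That contrast depends on dim probes and on the normalization, since the median of the probes bright on all arrays was 0.08 and 0.09 in these periods, and with cyclic loess that of all probes was -0.61 and 0.67. In a biopsy of mixed cells, fewer cells of a type and less RNA per cell cannot be told apart.

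**Figure D1:**
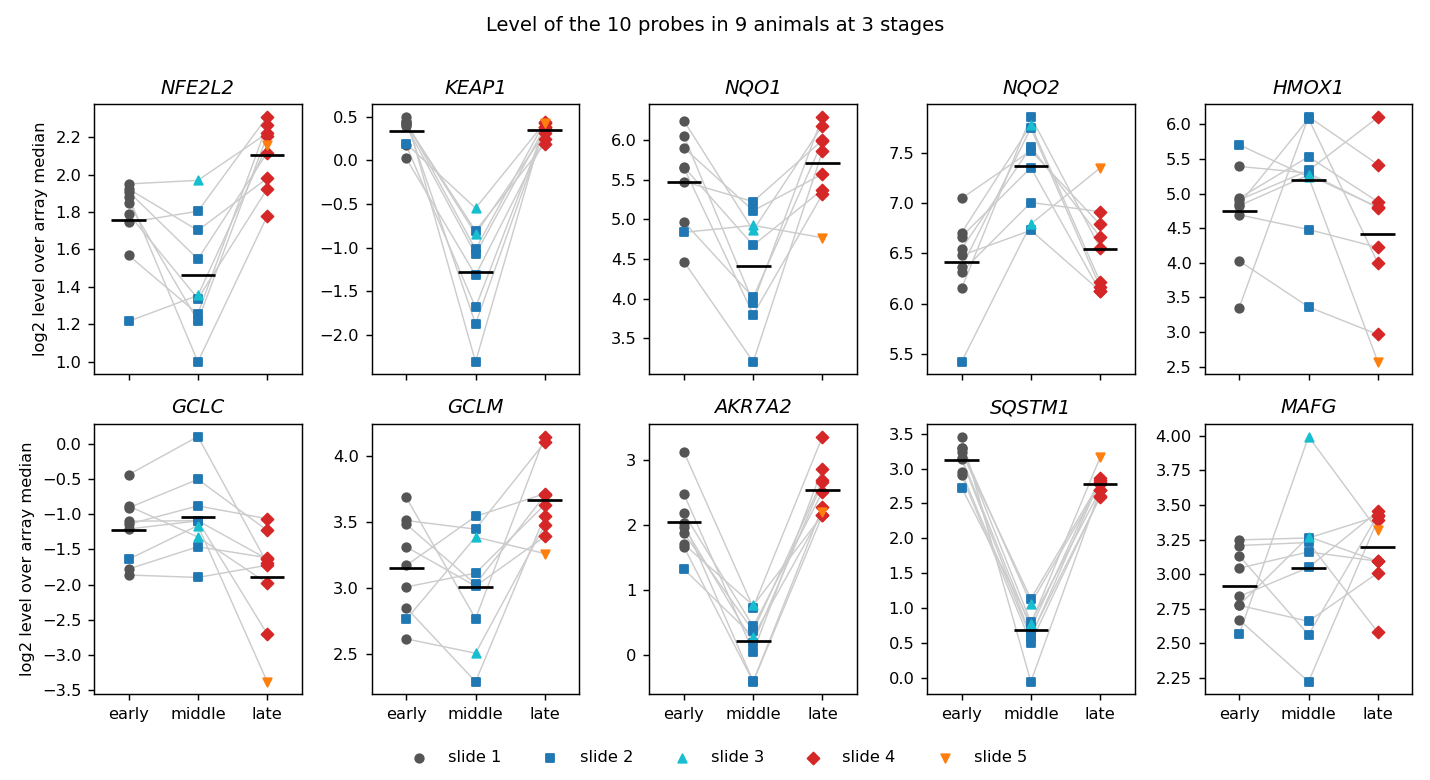
Log2 level over the array median (vertical axis) of the 10 probes at the early, middle and late stage, with 1 point per array, marker and colour by slide, grey lines joining the arrays of 1 animal and black bars for the mean of 9 animals. KEAP1, AKR7A2 and SQSTM1 at the middle stage sit below every early and late array, whereas NQO2 is highest at the middle stage.

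NFE2L2 itself changed by less than 2-fold in every period. Its log2 level ran from 1.22 to 1.95 at the early stage with a median of 1.85, from 1.00 to 1.97 at the middle stage with a median of 1.35, and from 1.78 to 2.31 at the late stage with a median of 2.16. All of these arrays were well above background, and the early and middle arrays overlapped over almost their whole range. From early to middle the log2 fold change was -0.29 (SE 0.12, adjusted *P* = 0.035), lower in 6 of 9 animals, and -0.62 relative to the median of all probes. The rise of the second period was seen in 9 of 9 animals, at 0.64 (SE 0.12, adjusted *P* = 9.5e-05), which is 1.56-fold. Over the total period the change was 0.35 (SE 0.12, adjusted *P* = 0.045), higher in 8 of 9 animals. The calls of the first and total periods lay close to the threshold. Leaving out any 1 of animals 1, 2, 3, 4, 6 or 7 ended the first (adjusted *P* up to 0.12). Leaving out any of animals 1, 2, 3, 4, 5, 6, 8 or 9 ended the other (up to 0.12). Scaling to the 75th percentile gave adjusted *P* = 0.078 and 0.17. Over 22 alternative settings, limma or the methods' t-test, the first-period change ran from -0.44 to 0.19 (adjusted *P* of 0.0030 to 0.82). Over 20 settings the total change ran from 0.23 to 0.44 (adjusted *P* of 0.029 to 0.38).

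MAFG, the small MAF partner of NRF2, had log2 levels of 2.57 to 3.25 (median 2.84) on the early arrays, 2.22 to 3.99 (median 3.16) on the middle arrays and 2.58 to 3.45 (median 3.32) on the late arrays. The 3 stages overlapped, the middle stage was the widest, and its highest value was the middle array of animal 9 on slide 3. None of the log2 fold changes passed the test, at 0.13 (SE 0.18, adjusted *P* = 0.54), 0.15 (SE 0.18, adjusted *P* = 0.46) and 0.28 (SE 0.18, adjusted *P* = 0.31) in the first, second and total periods. The first value was -0.03 without animal 9 and the second -0.03 with scaling to the 75th percentile, while normexp background correction gave a called second-period rise of 0.74 (adjusted *P* = 0.0027), so no direction held in either period.

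KEAP1 fell at the middle stage and returned. Its log2 level was 0.02 to 0.50 (median 0.41) on the early arrays, -2.31 to -0.55 (median -1.08) on the middle arrays and 0.19 to 0.44 (median 0.38) on the late arrays. The middle arrays overlapped with neither of the other stages. From early to middle it changed by -1.61 (SE 0.17, adjusted *P* = 4.6e-07) on the log2 scale and from middle to late by 1.63 (SE 0.17, adjusted *P* = 1.6e-07), in 9 of 9 animals each time, and 0.02 (SE 0.17, adjusted *P* = 0.96) over the total period. These folds of 3.05 and 3.09 rest on little light: the median processed signal was 52.4, 9.43 and 47.7 at the 3 stages, and KEAP1 was well above background on 9, 6 and 9 of 9 arrays. With normexp background correction, which shrinks dim signals, the changes were -0.40 and 0.39, still called.

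SQSTM1 showed the largest first-period change of the members. Its log2 level was 2.73 to 3.46 (median 3.16) on the early arrays, -0.06 to 1.13 (median 0.71) on the middle arrays and 2.59 to 3.16 (median 2.78) on the late arrays, well above background on all arrays. The middle arrays again lay apart from both other stages, with a gap of more than 1 log2 unit. The first-period log2 fold change was -2.45 (SE 0.13, adjusted *P* = 3.6e-10), which is 5.47-fold lower, and that of the second 2.11 (SE 0.13, adjusted *P* = 4.1e-10), with all 9 animals moving the same way in both. Over the total period it was -0.35 (SE 0.13, adjusted *P* = 0.079), lower in 8 of 9 animals, and it passed the test without animal 9 at -0.44 (adjusted *P* = 0.022). SQSTM1, AKR7A2 and NQO2 are among the genes that the study listed for its NRF2 pathway from these same arrays, so their changes are not independent evidence on the pathway. For KEAP1, SQSTM1 and AKR7A2, the 3 members whose early and middle arrays did not overlap, the background is 12.9% of all probes without overlap in that period. The same 3 members did not overlap between middle and late, beside 20.6% of all probes, and none lacked overlap between early and late, beside 6.47%.

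The quinone reductases NQO1 and NQO2 moved apart. NQO1, the cytosolic enzyme that reduces quinones by transferring a pair of electrons, had log2 levels of 4.47 to 6.24 (median 5.65), 3.20 to 5.23 (median 4.67) and 4.77 to 6.30 (median 5.86) at the early, middle and late stages. Adjacent stages overlapped, but the middle array was the lower in 8 of 9 animals in the first and also in the second period, animal 9 being the exception both times. The first-period change was -1.06 (SE 0.24, adjusted *P* = 0.00089), that of the second was 1.29 (SE 0.24, adjusted *P* = 0.0001), and the total change was 0.23 (SE 0.24, adjusted *P* = 0.56), all on the log2 scale.

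NQO2, the related enzyme that takes electrons from dihydronicotinamide riboside, had log2 levels of 5.42 to 7.05 (median 6.48), 6.73 to 7.86 (median 7.52) and 6.12 to 7.35 (median 6.55). Its middle arrays were the highest in 9 of 9 animals against early and in 8 of 9 against late, with overlap between stages. The log2 fold change was 0.96 (SE 0.21, adjusted *P* = 0.00071) in the first period, -0.83 (SE 0.21, adjusted *P* = 0.0019) in the second and 0.13 (SE 0.21, adjusted *P* = 0.73) over the total period, or 0.64 and -0.55 relative to the median of all probes in the first and second. The median processed signal before scaling was 3855, 3048 and 3020 at the 3 stages, so that before scaling the middle median was not above the early one. With normexp background correction neither change passed the test, at 0.36 (adjusted *P* = 0.41) and 0.02 (adjusted *P* = 0.96).

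AKR7A2, an aldo-keto reductase that reduces aldehydes, changed the most in the second period. Its log2 level was 1.32 to 3.13 (median 1.98) on the early arrays, -0.41 to 0.76 (median 0.28) on the middle arrays and 2.16 to 3.37 (median 2.52) on the late arrays. No middle array reached an early or a late one. The log2 fold change was -1.82 (SE 0.15, adjusted *P* = 3.8e-08) from early to middle and 2.32 (SE 0.15, adjusted *P* = 5.3e-10), which is 5.00-fold, from middle to late. The late level was also above the early one in 9 of 9 animals, at 0.50 (SE 0.15, adjusted *P* = 0.025), a call that was lost without animal 6 (0.46, adjusted *P* = 0.073), without animal 7 (0.48, adjusted *P* = 0.063) and with scaling to the 75th percentile (0.38, adjusted *P* = 0.060). Over all 20 alternative settings, limma or the methods' t-test, the total change ran from 0.38 to 0.54. Its adjusted *P* ran from 0.0023 to 0.39, so some settings strengthened the call. Normexp background correction gave -1.16 and 1.55 for the first and second periods, both called.

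GCLM and GCLC code for the 2 subunits of glutamate-cysteine ligase, the first enzyme of glutathione synthesis. GCLM, the modifier subunit, had log2 levels of 2.61 to 3.69 (median 3.17), 2.29 to 3.54 (median 3.03) and 3.26 to 4.15 (median 3.63) at the early, middle and late stages, with overlap throughout. Its change was -0.15 (SE 0.15, adjusted *P* = 0.38) in the first period, 0.66 (SE 0.15, adjusted *P* = 0.00052) in the second and 0.51 (SE 0.15, adjusted *P* = 0.018) over the total period, the last in 9 of 9 animals. Without animal 8 the total change was 0.47 (adjusted *P* = 0.051). Over all 20 alternative settings, limma or the methods' t-test, it ran from 0.36 to 0.57, with an adjusted *P* of 0.0021 to 0.46.

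GCLC, the catalytic subunit, was measured close to background. Its log2 level was -1.86 to -0.44 (median -1.14) on the early arrays, -1.90 to 0.10 (median -1.09) on the middle arrays and -3.38 to -1.06 (median -1.69) on the late arrays, where the lowest was the late array of animal 9 on slide 5. It was well above background on 9, 7 and 8 of 9 arrays, at median processed signals of 18.2, 7.74 and 10.5. The log2 fold change was 0.18 (SE 0.21, adjusted *P* = 0.46), -0.86 (SE 0.21, adjusted *P* = 0.0014) and -0.67 (SE 0.21, adjusted *P* = 0.031) in the first, second and total periods. Cyclic loess normalization fitted on bright probes turned the first to -0.89 (adjusted *P* = 0.0010) and the second to 0.34 (adjusted *P* = 0.14), and leaving out any 1 of animals 1, 4, 7, 8 or 9 ended the total call (adjusted *P* up to 0.099), so the direction of GCLC at the middle stage was not settled.

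HMOX1, heme oxygenase 1, varied more between animals than between stages. The log2 level was 3.35 to 5.70 (median 4.85), 3.36 to 6.11 (median 5.30) and 2.57 to 6.10 (median 4.80) at the early, middle and late stages. The changes of 0.45 (SE 0.37, adjusted *P* = 0.29), -0.77 (SE 0.37, adjusted *P* = 0.066) and -0.33 (SE 0.37, adjusted *P* = 0.60) did not pass the test. Within single animals the total change ran from -3.13 in animal 9 to 2.07 in animal 1, and without animal 9 the total change was 0.03. The second-period fall passed without animal 1 (-0.78, adjusted *P* = 0.044) and without animal 3 (-0.96, adjusted *P* = 0.032).

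**Figure D2:**
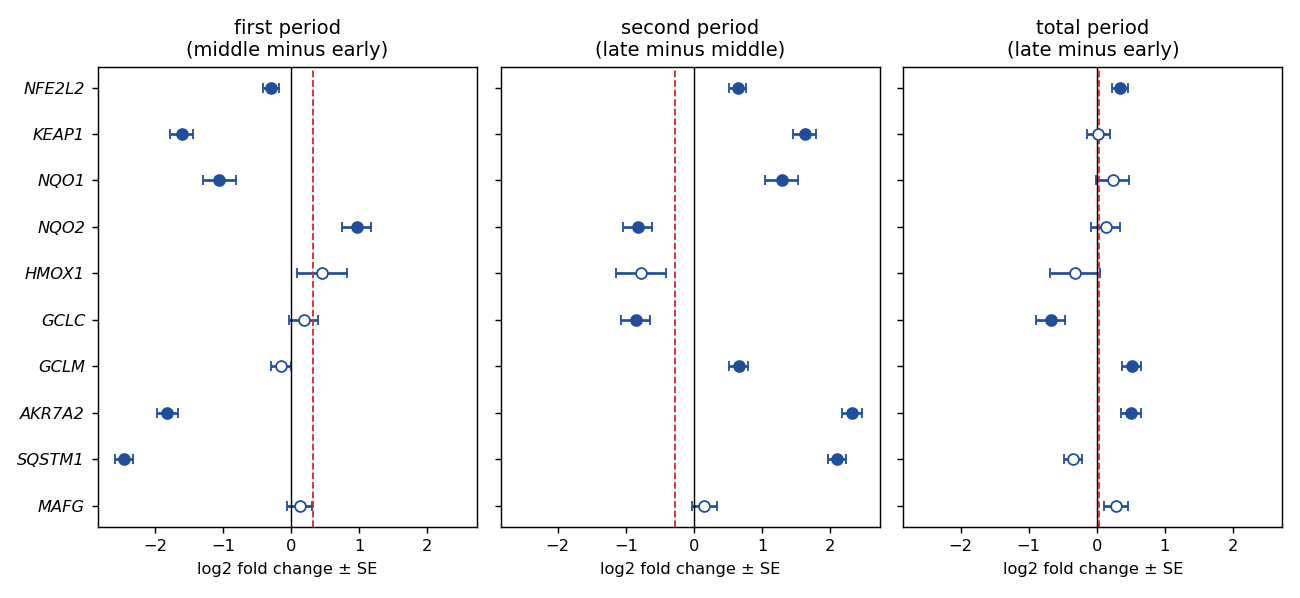
Log2 fold change (horizontal axis) of each member in the first, second and total periods from limma with the animal as a block, with bars for the SE, filled points for an adjusted P below 0.05 and a red dashed line at the median of all probes. SQSTM1, AKR7A2 and KEAP1 lie at -2.45, -1.82 and -1.61 in the first period, and every member lies between -0.67 and 0.51 over the total period.

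Slide could be separated from stage in the first period only, where slide 2 holds arrays of both stages. This fit rests on few arrays, since slide 2 holds a single early array, that of animal 9, and slide 3 holds the middle arrays of animals 8 and 9 only. With slide as a fixed block, AKR7A2 (-2.16, adjusted *P* = 0.013) and SQSTM1 (-2.32, adjusted *P* = 0.016) were called and the other members were not, although KEAP1 (-1.32, adjusted *P* = 0.21) and NQO2 (0.96, adjusted *P* = 0.37) kept their direction. NQO1 then had a change of 0.11, GCLM of 0.68 and HMOX1 of -0.36, each with the sign opposite to that without the slide. Within slide 2 alone, 7 middle arrays stood against the single early array of animal 9, and no member was called: at an unadjusted *P* below 0.05, 3270 of all probes passed, and 7 after adjustment. In that slide the 7 middle arrays were all below the early array for KEAP1, AKR7A2 and SQSTM1, and all above it for NQO2, whereas for NFE2L2 6 of 7 were above it, with a change of 0.19. None of these middle arrays came from animal 9, so stage and animal cannot be told apart in this contrast. The early array of animal 9 was the lowest early array for NFE2L2 (1.22), NQO2 (5.42), AKR7A2 (1.32) and SQSTM1 (2.73). With slide as a random block, KEAP1, NQO2, AKR7A2 and SQSTM1 were called in the first period, 6 members in the second and none in the total period, beside 6827, 7509 and 248 of all 15008 probes. Without the 3 middle arrays on which under 60% of spots were well above background, a setting added after the data were seen, the counts stayed at 6 and 8 members in the first and second periods.

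**Figure D3:**
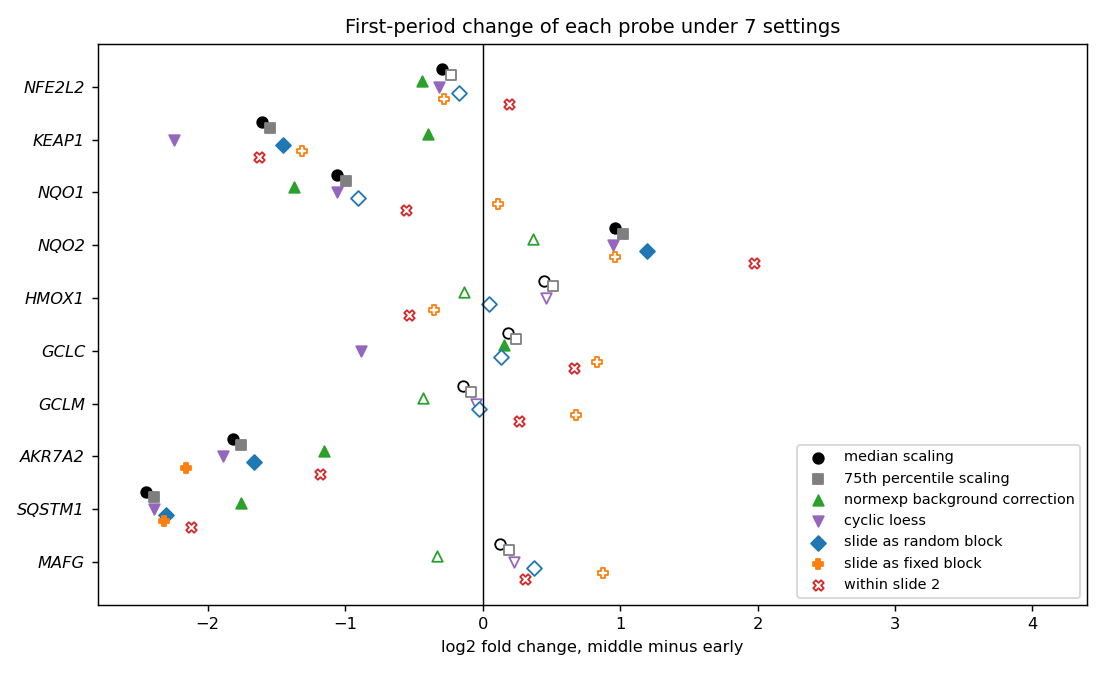
First-period log2 fold change (horizontal axis, middle minus early) of each member under 7 settings, with filled markers for an adjusted P below 0.05. SQSTM1, AKR7A2 and KEAP1 are left of 0 and NQO2 is right of 0 under all 7, whereas NFE2L2, NQO1, HMOX1, GCLC, GCLM and MAFG each cross 0 under at least 1.

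Whether functionally linked members changed by different amounts was tested for 5 pairs within animals, by exact two-sided sign-flip permutation over the 9 animals, with *P* adjusted over 15 tests (the smallest possible raw *P* is 0.0039). A constant shift of an array cancels in the difference of 2 of its probes, whereas a correction that depends on intensity, as in cyclic loess or normexp, does not. SQSTM1 and NQO2 were on the study's first-period NRF2 list from these same arrays, so a difference in a pair that holds them is not independent evidence. Between early and middle NFE2L2 fell less than SQSTM1 by 2.16 log2 units (SD 0.25, 9 of 9 animals, exact adjusted *P* = 0.0098) and less than KEAP1 by 1.31 (SD 0.63, 9 of 9 animals, exact adjusted *P* = 0.0098). In the second period it rose less than SQSTM1, by a difference of -1.46 (SD 0.34, 9 of 9, exact adjusted *P* = 0.0098), and less than KEAP1, by -0.99 (SD 0.75, 8 of 9, exact adjusted *P* = 0.013). Over the total period NFE2L2 rose relative to SQSTM1 in 9 of 9 animals, by 0.69 (SD 0.31, exact adjusted *P* = 0.0098), and relative to KEAP1 by 0.33 (SD 0.35, exact adjusted *P* = 0.035). With normexp background correction the differences from SQSTM1 were 1.32, -0.86 and 0.46, and the last no longer passed (exact adjusted *P* = 0.065). The KEAP1 differences depended on the processing. Normexp background correction gave -0.04 (exact adjusted *P* = 0.78) in the first period and turned the second to 0.32 (exact adjusted *P* = 0.0098). Cyclic loess moved them the other way, to 1.92 and -1.73. The normexp offset of 50 lay above every middle-stage KEAP1 signal (at most 16.4). The part of the dim signals in these differences was not tested. The total KEAP1 difference was lost with normexp (exact adjusted *P* = 0.065), with cyclic loess (0.20, exact adjusted *P* = 0.11) and on leaving out any of animals 2, 3, 4, 5, 6, 8 or 9 (exact adjusted *P* of 0.059 to 0.070).

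NQO1 fell and NQO2 rose in the first period, and the change of NQO1 minus that of NQO2 was -2.02 log2 units (SD 0.72, below 0 in 9 of 9 animals, exact adjusted *P* = 0.0098), a difference of -1.74 with normexp background correction. The second period had a difference of 2.12 (SD 1.37, 8 of 9, exact adjusted *P* = 0.013), and over the total period the 2 genes differed by 0.10 (SD 1.07, exact adjusted *P* = 0.77). The change of GCLC minus that of GCLM was -1.51 in the second period (SD 0.92, below 0 in 9 of 9 animals, exact adjusted *P* = 0.0098) and -1.18 over the total period (SD 0.84, 8 of 9, exact adjusted *P* = 0.013), whereas the first-period difference of 0.33 did not pass (SD 0.62, exact adjusted *P* = 0.18). With cyclic loess the second-period difference was -0.07 (exact adjusted *P* = 0.76) and the first-period one turned to -0.83 (exact adjusted *P* = 0.012). Only the total difference of this pair kept its direction and call in all settings tried for pairs. None of those settings included slide, early and late arrays shared no slide, and GCLC was measured close to background. NFE2L2 and MAFG differed by -0.42 in the first period (SD 0.49, exact adjusted *P* = 0.037) and by 0.49 in the second (SD 0.56, exact adjusted *P* = 0.044), both lost with normexp (-0.10 and -0.04, exact adjusted *P* = 0.57 and 0.87) and on leaving out any of animals 1, 2, 3, 5, 7, 8 or 9 (exact adjusted *P* of 0.059 to 0.088), and by 0.07 over the total period (SD 0.25, exact adjusted *P* = 0.67).

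**Figure D4:**
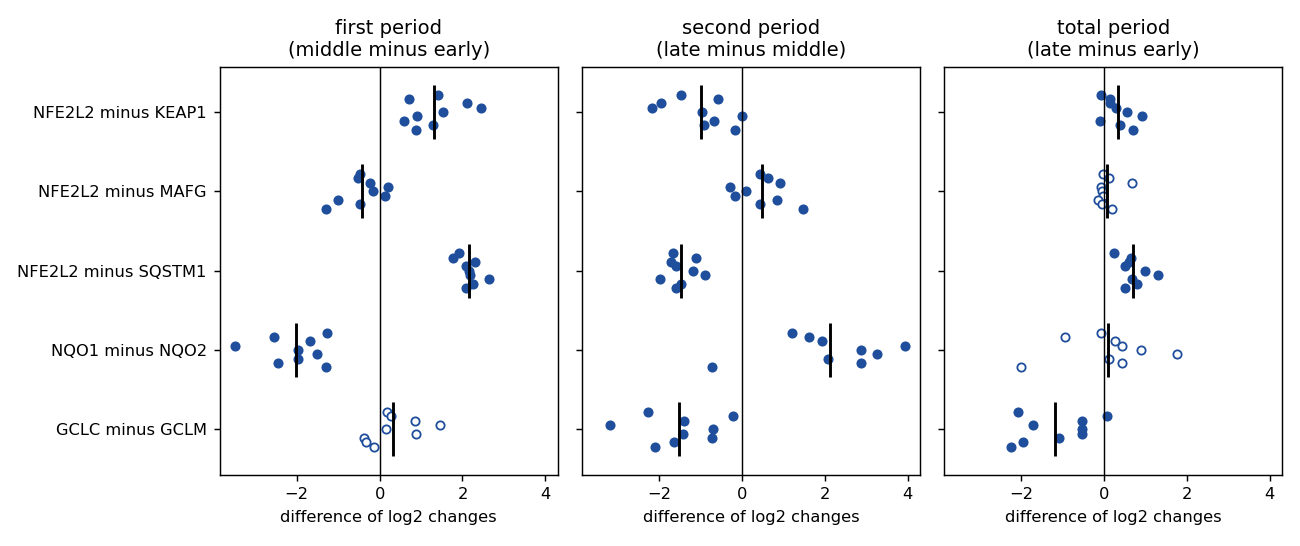
Difference between the log2 changes of the 2 genes of a pair (horizontal axis) in each of 9 animals, with a black bar for the mean and filled points where the exact adjusted P is below 0.05. NFE2L2 minus SQSTM1 lies between 1.77 and 2.64 in the first period and between -1.98 and -0.89 in the second, and NQO1 minus NQO2 is below 0 in all 9 animals in the first period.

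A list of 90 other genes of the pathway, 30 regulators and 60 targets from textbook knowledge, had 82 with a probe. Of its genes named here, CAT, AKR1A1, EPHX1 and ABCC4 are also in the study's NRF2 list from these arrays and are not independent evidence. During the first period 49 of 82 were called (59.8%, beside 66.5% of all probes), 20 higher and 29 lower, the latter 9 regulators and 20 targets. The list median was -0.07, beside 0.33 for all probes and 0.08 for the probes bright on all arrays. CAT, which codes for catalase, fell by 2.31 (SE 0.15, adjusted *P* = 2.5e-09), AKR1A1, an aldehyde reductase, by 2.14 (SE 0.15, adjusted *P* = 3.6e-09) and EPHX1, the microsomal epoxide hydrolase, by 1.71 (SE 0.15, adjusted *P* = 8.7e-08) on the log2 scale, each in 9 of 9 animals. The largest rises were those of ABCC4, an efflux transporter of organic anions, at 1.98 (SE 0.21, adjusted *P* = 5.8e-07), of TXNIP, the thioredoxin-interacting protein, at 1.06 (SE 0.25, adjusted *P* = 0.0011) and of OSGIN1, an oxidative stress-induced growth inhibitor, at 0.77 (SE 0.17, adjusted *P* = 0.00068).

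During the second period 59 of 82 were called (72.0%, beside 71.5% of all probes), 41 higher and 18 lower, with a list median of 0.34 beside -0.28 for all probes and 0.09 for those bright on all arrays. AKR1A1 rose by 2.49 (SE 0.15, adjusted *P* = 1.4e-10), CAT by 2.41 (SE 0.15, adjusted *P* = 3.6e-10) and EPHX1 by 1.87 (SE 0.15, adjusted *P* = 8.6e-09), in 9 of 9 animals each. ABCC4 fell by 2.76 (SE 0.21, adjusted *P* = 4.1e-09) and TXNIP by 0.80 (SE 0.25, adjusted *P* = 0.0073), and BTRC, an F-box protein of a KEAP1-independent ubiquitin ligase for NRF2, fell by 0.74 (SE 0.12, adjusted *P* = 1.6e-05). Over the total period 13 of 82 were called, 9 higher and 4 lower, which is 15.9% of the list beside 20.0% of all probes. The glutathione transferase genes GSTM3 and GSTM1 rose by 1.22 (SE 0.18, adjusted *P* = 0.00012) and 0.90 (SE 0.18, adjusted *P* = 0.0016), although near-identical copies of such genes may share a probe, and ESD, the S-formylglutathione hydrolase, rose by 0.66 (SE 0.17, adjusted *P* = 0.010). ABCC4 fell by 0.79 (SE 0.21, adjusted *P* = 0.013), the deubiquitinase gene USP11 by 0.60 (SE 0.13, adjusted *P* = 0.0034) and PGAM5, a mitochondrial phosphatase that binds KEAP1, by 0.57 (SE 0.13, adjusted *P* = 0.0048).

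**Figure D5:**
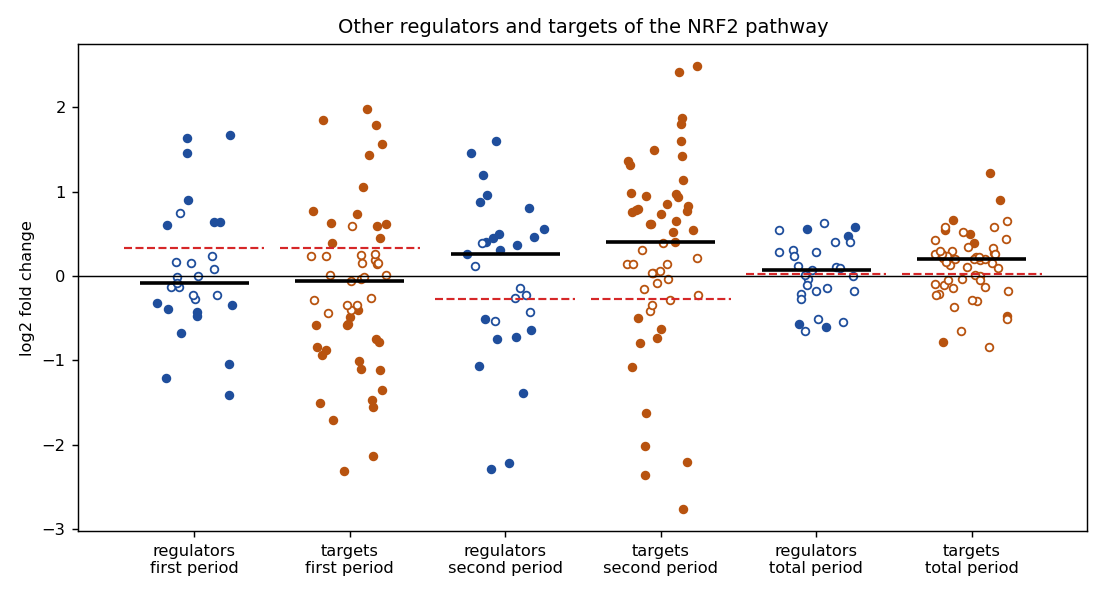
Log2 fold change (vertical axis) of the 29 regulators (blue) and 53 targets (orange) with a probe in the 3 periods, filled where the adjusted P was below 0.05, with black bars for the list median and red dashed lines for the median of all probes. The list medians lie below the median of all probes in the first period and above it in the second and total periods.

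Over the 27 arrays, which share slides, stages and animals, the bright probes whose level followed NFE2L2 most closely were those of PCBD1 (Pearson's r = 0.84), ZNF70 (0.83), LMO4 (0.82), PRKCH (0.82) and MARCH5 (0.82), among 6763 other probes that were well above background on every array and had no array left out as an outlier spot. The closest member among these bright probes was AKR7A2 at r = 0.68, in place 225, followed by SQSTM1 at 0.65, NQO1 at 0.60, GCLM at 0.38 and MAFG at 0.32. NQO2 (-0.24) and HMOX1 (-0.51) ran against NFE2L2. KEAP1 (0.57) and GCLC (-0.22) were not well above background on every array and were therefore not ranked. These correlations describe the arrays and were not tested.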

How the data were processed

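Each of the 27 samples was labelled with cyanine 3 and hybridised to a one-color bovine Agilent array. The authors' scanner files were made with Feature Extraction (11.0.1.1 in the file headers, 9.5 in the submitters' processing notes) and hold the background-subtracted, processed intensity of each spot and the flag for well above background. The deposited series values are log2 signals scaled to about the 75th percentile of each array, which was found by setting them against the scanner intensity, and served as an alternative. The 15008 probes came from 15110 spots other than control spots. Spots flagged as outliers were left out, spots of 1 probe averaged, and log2 intensity was scaled to the array median, as in the study's methods. Stage means with a fixed effect of animal were fitted to all probes with limma 3.58.1 in R 4.3.3, with Benjamini-Hochberg adjustment over all probes and a threshold of 0.05, after the code was tested on simulated data. The labels number the samples of each stage from 1 to 9 and name no animal, so equal numbers were taken as the same animal. Arrays paired in this way had a mean correlation of deviations from the stage means of 0.16 (-0.15 to 0.46). It was above 0 in 24 of 27 pairs, which share arrays. The mean for different animals at different stages was -0.02. Removing the stage means ties that value to the same-animal mean, so it is no separate baseline. Pairs of genes were compared by exact sign-flip permutation (Python 3.11.15, scipy 1.17.1). Named genes were all members, the 3 largest called rises and falls of the pathway list in each period among probes that 1 stage measured well above background in all 9 animals, and the 5 bright probes most like NFE2L2. Where a list gene had several probes, the probe with the highest mean level was taken. The members and gene lists were chosen with earlier results of these data known. Alternatives were other scalings and normalizations, normexp background correction with an offset of 50, the study's paired t-test, slide as a block, and leaving out each animal. Array data have no read depth, and the number of arrays limits the precision.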

Additional observations from a re-analysis of the deposited data

Results flagged for a closer look

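Among the 30 combinations of a member and a stage, 1 held a sample far from the other 8. The late array of animal 9 had a SQSTM1 log2 level of 3.16, while the next highest was 2.87, so that the gap made up 0.52 of the range of the 9 late arrays. This array is the only one on slide 5, and the part of the slide was not tested. Chance flags about 1 in 20 such groups.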

How the results depend on the processing

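Without the replicate block of animal, 6, 8 and 1 members were called in the first, second and total periods, in place of 6, 8 and 4, and 9703, 10484 and 2720 of all probes, in place of 9986, 10729 and 2995, so that without the pairing the number of members called moved in the total period only. In the first period 2 members were called when slide was a fixed block and 0 on slide 2 alone, beside 1227 and 7 of all probes (3776 and 3270 at an unadjusted *P* below 0.05). Of the pathway list, 31 were called with slide as a random block, 10 with a fixed block and 0 within slide 2. These latter settings could be fitted for the first period only. Members called over the total period numbered 2 with quantile normalization and 0 with normexp background correction or slide as a random block, and those of the list 7 with normexp, 0 with the random block, 30 with the methods' t-test and 31 with early and late arrays only, the last added after seeing the data. The methods' t-test called 8898, 9804 and 4462 of all probes. With early and late arrays only, 4767 of all probes were called over the total period, in place of 2995. The median SE over all probes was then 0.125 in place of 0.188. Pairs whose changes differed numbered 2 in the first and 1 in the total period with normexp, in place of 4 and 3. Leaving out 1 animal at a time gave 5 to 6, 8 to 9 and 1 to 3 members in the 3 periods.

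Of 620 member values under the alternatives, 28 had the opposite sign. In the first period these were NFE2L2 (0.19 within slide 2), NQO1 (0.11 with a fixed block), HMOX1 (-0.13 with normexp, -0.36 with a fixed block, -0.53 within slide 2), GCLC (-0.89 with cyclic loess), GCLM (0.68 with a fixed block, 0.27 within slide 2) and MAFG (-0.34 with normexp, -0.034 without animal 9). In the second they were NQO2 (0.019) and HMOX1 (0.062) with normexp, GCLC (0.34 with cyclic loess) and MAFG (-0.026 with the 75th percentile, -0.025 with quantile normalization, -0.088 with cyclic loess, -0.024 with the series values, -0.049 with slide as a random block). Over the total period they were KEAP1 (-0.098 with the 75th percentile, -0.010 with normexp, -0.094 with the series values, and -0.0087 to 0.050 on leaving out an animal), NQO2 (-0.051 with quantile normalization, -0.054 with cyclic loess, -0.090 to 0.22 on leaving out an animal) and HMOX1 (-0.62 to 0.026 on leaving out an animal). MAFG ranged from -0.034 to 0.22 in the first period on leaving out an animal. The causes were not tested. The scaling moved the median of all probes to 0.39, -0.46 and -0.09 with the 75th percentile and to -0.61, 0.67 and 0.07 with cyclic loess, and turned the split of first-period calls from 6799 higher and 3187 lower to 2253 and 8474. Signal near background limited KEAP1 and GCLC, and the middle-stage signals of SQSTM1 and AKR7A2 (medians of 25.4 and 18.7) were also low.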

Other observations

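Other thiol and NADPH genes of the pathway, chosen after their values were seen, did not move as one. PRDX1, a peroxiredoxin that removes peroxides, changed by -1.01 (adjusted *P* = 1.1e-05 in limma) in the first and by 0.98 (adjusted *P* = 8.7e-06) in the second period, well above background on all 27 arrays. GSR, glutathione reductase, changed by -0.41 (adjusted *P* = 0.039) and 0.62 (adjusted *P* = 0.0030). TXN, thioredoxin, changed by 0.01 (adjusted *P* = 0.97) and 0.15 (adjusted *P* = 0.30), and TXNRD1, its reductase, by -0.40 (adjusted *P* = 0.11) and 0.30 (adjusted *P* = 0.21), and neither passed the test. CUL3, the scaffold of the KEAP1 ligase, changed by 0.00 and -0.14 (adjusted *P* = 0.29), whereas its RING partner RBX1 changed by -0.32 (adjusted *P* = 0.018) and 0.88 (adjusted *P* = 2.4e-06).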
